A study of Mus musculus with 12 samples.

Results

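The immediate-early and C/EBP transcription factors examined here are Fos, Fosb, Fosl1, Fosl2, Jun, Junb, Atf3, Egr1, Cebpb and Cebpd. They were chosen by gene symbol in the annotation of a bead array, and every probe carrying one of these symbols was taken. The array held 13 probes for 9 of the 10 symbols, among 46632 probes for 34509 symbols. No probe carried the symbol Fosl1, so Fosl1 was not analysed here. Of the 13 probes, 10 probes for 8 symbols were bright enough to be tested. The others were the probe for Fosb, detected on 1 of 12 arrays, and one further probe each for Fosl2 and Junb, detected on 0 arrays.

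RNA came from femoral head cartilage explants of 21-day-old TS-4/5∆cat mice. These mice carry in-frame deletions that remove the catalytic domains of the aggrecanases ADAMTS-4 and ADAMTS-5, and all explants, the untreated ones included, carried both deletions. All explants were cultured for 3 days, either untreated or with 10 ng/mL of interleukin-1α (IL-1α) or 10 µM retinoic acid. According to the labels, a well held 4 hips. There were 4 arrays per treatment, 2 in each of 2 batches. Batch 1 was the line Donut and batch 2 the line Gertrude, so line and batch cannot be told apart. The labels do not say that arrays of one treatment and batch came from separate cultures, and p-values therefore measure only the spread between these arrays.

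Immediate-early genes are transcribed within minutes of a stimulus from factors already present in the cell, and many of them encode transcription factors. FOS, JUN and ATF proteins pair through leucine zippers to form AP-1, which in cartilage is known to drive matrix metalloproteinase genes downstream of interleukin-1. C/EBP proteins also bind as leucine zipper dimers and are known for acute-phase and inflammatory genes. Ligand-bound retinoic acid receptors are known to antagonise AP-1. The explants were collected days after the stimulus, so the values below are levels at that single time and hold nothing on the first hours.

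Normalized intensities are given on the log2 scale, where a difference of 1 is a doubling. A probe's level can be compared between arrays but not with the level of another probe. The 12 arrays detected between 13786 and 14965 probes in batch 1 and between 16732 and 19485 in batch 2, with the highest count on an untreated array of batch 2. Pearson's r across the probes kept, between the arrays of one treatment and batch, was between 0.983 and 0.995. The explants were mixed tissue. The summed linear intensity of the chondrocyte markers, of which 8 were kept, was 62610 to 74150 on the untreated arrays, 35440 to 47250 with IL-1α and 10220 to 15490 with retinoic acid. Matn3, a further chondrocyte marker, was not detected on any array. The neutrophil and myeloid precursor markers, 8 of 8 kept, summed to 9882 to 17030, 17220 to 18190 and 6036 to 15270 in the same order. Endothelial markers summed to 1938 to 2377, 947.7 to 1241 and 2127 to 2508, and macrophage markers to 5793 to 6860, 5078 to 8627 and 7510 to 8290. The sum hides that single macrophage markers went both ways. Of the 6 kept, 2 were higher and 3 lower with IL-1α, and 3 were higher and 0 lower with retinoic acid. The adipocyte markers Fabp4, Plin and Lep and the muscle markers Ckm, Myh1, Myh2 and Mb were not detected on any array. Other markers of these cells were tested. The adipocyte markers Adipoq and Cfd had log2 fold changes of −1.57 and −1.89 with IL-1α and −1.08 and −2.13 with retinoic acid. Those of the muscle gene Tnnt3 were −1.26 and −1.45. The muscle gene Acta1 was dim and in at least 1 treatment was not detected on any array. It was at −0.64 with IL-1α (limma adjusted p = 0.00437) and was not called with retinoic acid (−0.21, limma adjusted p = 0.267). Osteoblast markers, 6 of 7 on the array kept, summed to 10110 to 12020 untreated, 2851 to 5409 with IL-1α and 3287 to 4595 with retinoic acid. Fewer cells of a type and less RNA per cell cannot be told apart in such samples, and the part of cell composition in the results below was not tested.

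**Figure D1:**
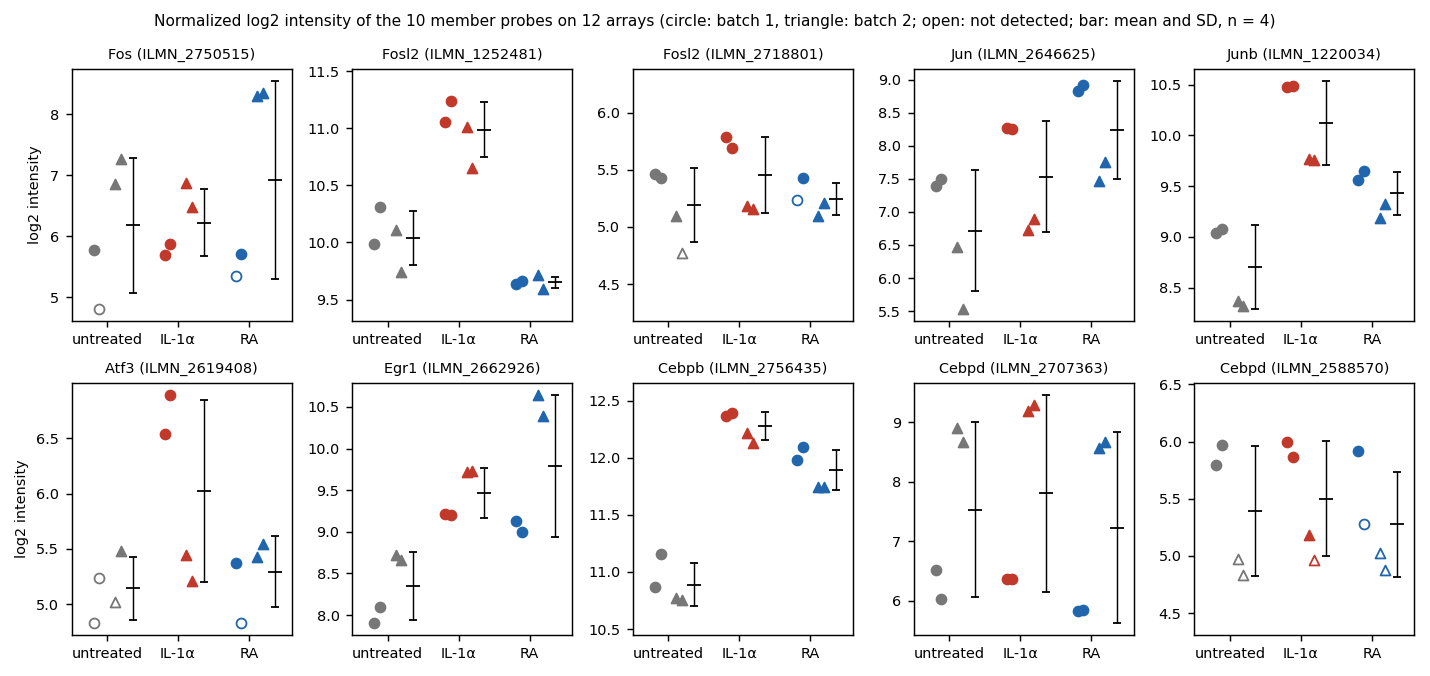
Normalized log2 intensity of the 10 tested probes on each array, by treatment (RA, retinoic acid), with circles for batch 1, triangles for batch 2, open symbols where the probe was not detected, and bars for the mean and SD (n = 4). The 3 treatments do not overlap for Cebpb and Junb, whereas all arrays of batch 2 lie above all arrays of batch 1 for Fos and the brighter Cebpd probe (ILMN_2707363).

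In both treatments, most of the members that changed were higher than in untreated cartilage. With IL-1α, 5 of the 10 probes rose, those for Junb, Cebpb, Egr1, Fosl2 and Jun, and 0 fell. Over all 18200 tested probes, 29.3% passed the same threshold in either direction and 15.2% were higher and 14.1% lower. With retinoic acid, Jun, Egr1, Cebpb and Junb rose and Fosl2 fell, against a background of 35.4% of probes, 18.2% higher and 17.1% lower. Between the treatments, retinoic acid gave the higher level of Jun and the lower level of Fosl2, Junb, Cebpd and Cebpb, against a background of 31.1%, 15.2% higher and 15.8% lower. The median log2 fold change of the 10 probes was 0.85 with IL-1α, 0.44 with retinoic acid and −0.31 between retinoic acid and IL-1α. The medians over all tested probes were 0.02, 0.02 and −0.03. The 3 comparisons share arrays and are not independent. The threshold was an adjusted p of 0.05 from limma. When arrays were brought to a common median and not quantile normalized, Fosl2 with retinoic acid lost its call, as did Cebpb and Cebpd between the treatments. That scaling took the median of all probes for retinoic acid against untreated from 0.02 to 0.14 and between the treatments from −0.03 to 0.06, and 65.6% of all calls were then higher with retinoic acid than in untreated cartilage, in place of 51.6%. Between the treatments the share was 65.6% in place of 49%.

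**Figure D2:**
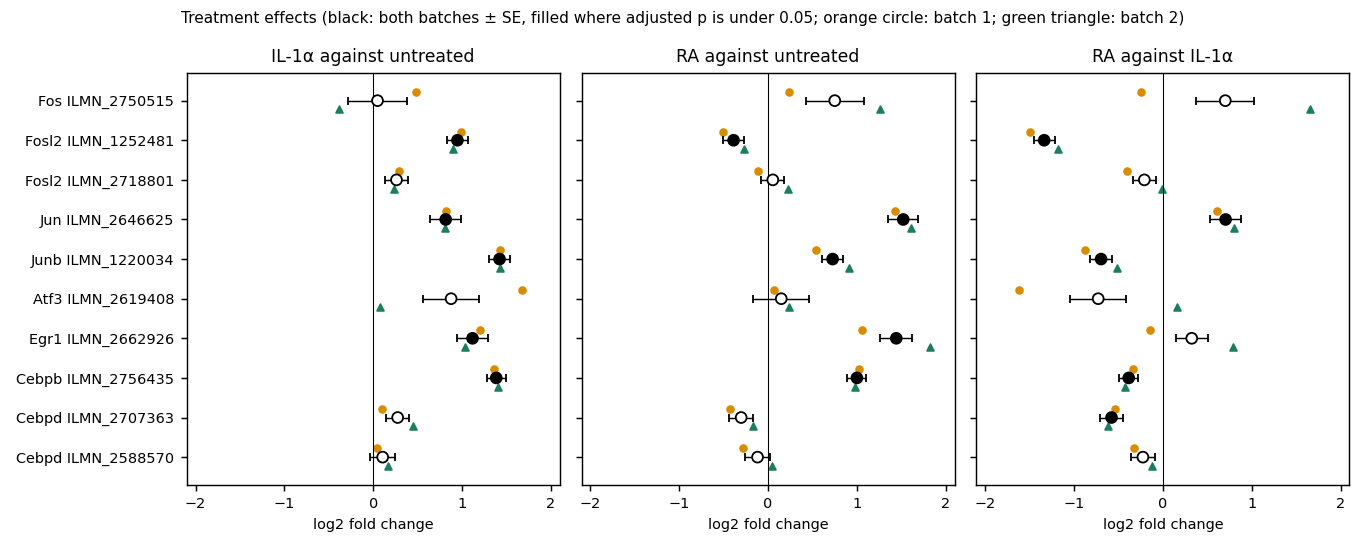
Log2 fold change of the 10 tested probes in each comparison (RA, retinoic acid), with black circles and SE bars for both batches together, filled where the adjusted p from limma was under 0.05, orange circles for batch 1 and green triangles for batch 2. Junb, Egr1, Jun and Cebpb lie right of 0 with both treatments, and Fosl2 (ILMN_1252481) lies right of 0 with IL-1α and left of 0 with retinoic acid.

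Cebpb, which encodes a C/EBP factor known from acute-phase and interleukin signalling, had well separated levels. The probe for Cebpb (ILMN_2756435) read 10.87 and 11.16 on the untreated arrays of batch 1 and 10.77 and 10.76 on those of batch 2. The IL-1α arrays read 12.36 and 12.39, then 12.22 and 12.13, in the same order of batches. The retinoic acid arrays read 11.98 and 12.10, then 11.75 and 11.74. The 3 treatments did not overlap, and every array with retinoic acid lay between the untreated arrays and those with IL-1α. Cebpb rose 2.61-fold with IL-1α (log2 fold change 1.39 ± 0.11, SE; limma adjusted p = 1.21e-06) and 2.00-fold with retinoic acid (1.00 ± 0.11; limma adjusted p = 9.33e-06). It was lower with retinoic acid than with IL-1α by a smaller step, with a log2 fold change of −0.39 (95% interval −0.62 to −0.15; limma adjusted p = 0.0142). This step missed the threshold in batch 1 taken alone (limma adjusted p = 0.0844) and when one IL-1α array of batch 2, replicate 1, was left out (limma adjusted p = 0.0566). For each of the 3 pairs of treatments the exact permutation test, two-sided over 70 arrangements, gave p = 0.0286, the smallest this design allows.

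Junb encodes a JUN family partner in AP-1 and had the same order of treatments. The probe for Junb (ILMN_1220034) read 9.04 and 9.08 on the untreated arrays of batch 1 and 8.36 and 8.32 on those of batch 2. After IL-1α the values were 10.47 and 10.49, then 9.77 and 9.76, and with retinoic acid 9.56 and 9.65, then 9.18 and 9.32. Within each batch the arrays of one treatment were close together, and again no pair of treatments overlapped. Junb rose 2.68-fold with IL-1α (log2 fold change 1.42 ± 0.12, SE; limma adjusted p = 2.85e-06), with 1.42 in each batch. With retinoic acid Junb rose 1.66-fold (0.73 ± 0.12; limma adjusted p = 0.00039), by 0.54 in batch 1 and 0.91 in batch 2. Retinoic acid was 1.62-fold below IL-1α (−0.70; limma adjusted p = 0.000596), and the exact permutation test gave p = 0.0286 for every pair. Non-overlapping arrays were seen for 4 of the 10 probes in each comparison with untreated cartilage and for 3 between the treatments, where the backgrounds were 13.5%, 16.9% and 17.7%.

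Fosl2 was the member that moved in opposite directions with the treatments. It encodes FRA-2, a FOS family partner in AP-1 without the strong activation domain of FOS. Its brighter probe (ILMN_1252481) read 9.99, 10.31, 10.11 and 9.74 on the untreated arrays, the first pair from batch 1 and the second from batch 2. The arrays with IL-1α read 11.06, 11.23, 11.01 and 10.65, and with retinoic acid 9.64, 9.66, 9.71 and 9.59. All arrays with IL-1α were above all others, while the highest array with retinoic acid lay just below the lowest untreated array. Fosl2 rose 1.93-fold with IL-1α (log2 fold change 0.95 ± 0.12, SE; limma adjusted p = 8.29e-05). With retinoic acid it fell by 0.39 on the log2 scale (limma adjusted p = 0.0219). That fall lost its call without untreated replicate 2 of batch 1 (limma adjusted p = 0.0854), without either retinoic acid array of batch 1 (limma adjusted p = 0.0647 and 0.105) and in batch 2 alone (log2 fold change −0.27, limma adjusted p = 0.272). Retinoic acid was 2.53-fold below IL-1α (−1.34; limma adjusted p = 1.95e-06), the largest difference between the treatments among the members over both batches.

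The second tested probe for Fosl2 (ILMN_2718801) was dim, between 4.77 and 5.79, and was undetected on 2 arrays. Its differences were 0.26 with IL-1α (limma adjusted p = 0.145), 0.05 with retinoic acid (limma adjusted p = 0.784) and −0.21 between the treatments (limma adjusted p = 0.255). None was called, and the intervals reached 0.54, 0.33 and −0.49 at their far ends. With retinoic acid its interval, −0.23 to 0.33, overlapped that of the brighter probe, −0.65 to −0.13, so the dim probe neither shows nor excludes the fall.

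Jun and Egr1 rose with both treatments, and Jun went further with retinoic acid. Jun encodes c-JUN, a core subunit of AP-1. The probe for Jun (ILMN_2646625) read 7.38 and 7.50 on the untreated arrays of batch 1 and 6.46 and 5.53 on those of batch 2. With IL-1α it read 8.27 and 8.25, then 6.72 and 6.90, and with retinoic acid 8.82 and 8.93, then 7.46 and 7.75. Within each batch the order was untreated, IL-1α, retinoic acid with no overlap, but across batches the treatments overlapped because batch 2 was lower by 1.39. Jun rose 2.87-fold with retinoic acid (log2 fold change 1.52 ± 0.17, SE; limma adjusted p = 1.58e-05) and 1.76-fold with IL-1α (0.82 ± 0.17; limma adjusted p = 0.00338). Retinoic acid exceeded IL-1α by 0.71 (limma adjusted p = 0.0067), with 0.61 in batch 1 (limma adjusted p = 0.0511) and 0.80 in batch 2 (limma adjusted p = 0.0151). The exact permutation test, which ignores the batches, gave p = 0.0571 for retinoic acid, 0.229 for IL-1α and 0.229 between them.

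Egr1 encodes a zinc finger transcription factor that is induced through serum response factor. The probe for Egr1 (ILMN_2662926) read 7.90 and 8.09 on the untreated arrays of batch 1 and 8.73 and 8.67 on those of batch 2. IL-1α brought values of 9.21 and 9.20, then 9.72 and 9.74, and with retinoic acid 9.13 and 8.99, then 10.65 and 10.39. Every treated array was above every untreated array. Egr1 rose 2.17-fold with IL-1α (log2 fold change 1.12 ± 0.18, SE; limma adjusted p = 0.000498) and 2.72-fold with retinoic acid (1.44 ± 0.18; limma adjusted p = 3.44e-05), and the exact permutation p was 0.0286 for each. The treatments themselves differed by 0.32 (95% interval −0.06 to 0.71; limma adjusted p = 0.196) over both batches, and by 0.50 without retinoic acid replicate 2 of batch 1 (limma adjusted p = 0.0487). In batch 1 retinoic acid lay 0.14 below IL-1α (log2 fold change −0.14, limma adjusted p = 0.512), and in batch 2 it lay 0.79 above (limma adjusted p = 0.000612). This difference between the batches was itself 0.94 (SE 0.20; limma adjusted p = 0.0111).

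Fos, the prototype immediate-early gene, was low in batch 1, and in batch 2 it was higher with retinoic acid. The probe for Fos (ILMN_2750515) read 5.78 and 4.80 on the untreated arrays of batch 1, the second not detected, and 6.86 and 7.26 on those of batch 2. With IL-1α it read 5.68 and 5.87, then 6.87 and 6.48. With retinoic acid it read 5.34, not detected, and 5.71, then 8.30 and 8.34. The highest levels were those of the retinoic acid arrays of batch 2, and in batch 1 the treatments overlapped. Over both batches IL-1α changed Fos by 0.05 ± 0.33 (SE; limma adjusted p = 0.927) and retinoic acid by 0.75 ± 0.33 (limma adjusted p = 0.095), so Fos was not called with either. Retinoic acid against IL-1α was 0.70 (limma adjusted p = 0.129). Without retinoic acid replicate 1 of batch 1, one of the arrays on which Fos was not detected, retinoic acid was 1.13 above untreated (limma adjusted p = 0.0113) and 1.07 above IL-1α (limma adjusted p = 0.017), and without IL-1α replicate 2 of batch 1 it was 1.01 above IL-1α (limma adjusted p = 0.0359). Retinoic acid against IL-1α was −0.25 in batch 1 (limma adjusted p = 0.526) and 1.65 in batch 2 (limma adjusted p = 0.000148). The difference of 1.90 between the batches passed its test (SE 0.36; limma adjusted p = 0.00512). Retinoic acid against untreated was 0.24 in batch 1 and 1.27 in batch 2 (limma adjusted p = 0.539 and 0.00146), but here the difference between the batches did not pass (1.03 ± 0.36, limma adjusted p = 0.187).

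Atf3 encodes a stress-induced partner of JUN proteins that can repress transcription, and its response to IL-1α appeared in one batch. The probe for Atf3 (ILMN_2619408) read 4.83 and 5.24 on the untreated arrays of batch 1, both not detected. In batch 2 the untreated arrays read 5.02, not detected, and 5.49. The IL-1α arrays read 6.54 and 6.89, then 5.45 and 5.21, all detected. The retinoic acid arrays read 5.37 and 4.83, the second not detected, then 5.42 and 5.55. The IL-1α arrays of batch 1 stood above the other 10 arrays, which all lay within 4.83 and 5.55. IL-1α was at least 2.70-fold above the untreated arrays in batch 1 (fitted log2 fold change 1.68; limma adjusted p = 3.38e-05) and differed by 0.07 in batch 2 (limma adjusted p = 0.852). The bound sets the untreated arrays at the lowest signal detected on them. The effects differed between batches by −1.61 (SE 0.30; limma adjusted p = 0.00924). Over both batches the change with IL-1α was 0.88 (95% interval 0.19 to 1.57) and just missed the threshold (limma adjusted p = 0.054). It passed without retinoic acid replicate 2 of batch 1 (0.89, limma adjusted p = 0.0284), untreated replicate 2 of batch 2 (1.07, limma adjusted p = 0.0482), or either IL-1α array of batch 2 (1.05 and 1.25, limma adjusted p = 0.0335 and 0.00627). Retinoic acid against untreated was 0.15 (limma adjusted p = 0.756), and retinoic acid against IL-1α was −1.62 in batch 1 and 0.16 in batch 2, a difference of 1.77 (SE 0.30; limma adjusted p = 0.00251). Over both batches it was −0.73 (limma adjusted p = 0.103), and −1.10 without IL-1α replicate 2 of batch 2 (limma adjusted p = 0.0104).

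Effects that differed between the batches were found for 1 of the 10 probes with IL-1α (Atf3), 0 with retinoic acid and 3 between the treatments (Fos, Atf3 and Egr1). The backgrounds over all tested probes were 4.82%, 2.86% and 8.76%. With retinoic acid, 2 of the 10 probes had an unadjusted p under 0.05 for this difference in limma. Within batch 1, 6, 5 and 4 of the 10 probes were called in the same order of comparisons, against backgrounds of 34.2%, 32.2% and 32.0%. Within batch 2, 5, 5 and 7 were called, against 19.9%, 31.4% and 28.2%. Each value within a batch rests on 2 arrays per treatment, with the spread taken from all 12 arrays. Other measures also differed between the batches. The mean log2 level of the neutrophil and myeloid precursor markers with retinoic acid was 8.55 to 8.61 in batch 1 and 9.78 to 9.79 in batch 2. With IL-1α it was 10.46 to 10.49 and 10.45 to 10.52, and in untreated cartilage 10.35 to 10.52 and 9.50 to 9.74. The mean macrophage level with retinoic acid was 7.16 to 7.28 in batch 1 and 7.60 to 7.65 in batch 2. With IL-1α, the treatment in which Atf3 differed, the mean osteoblast level was 7.65 to 7.68 in batch 1 and 8.63 to 8.71 in batch 2, and the mean erythroid level was 9.44 to 9.51 and 8.87 to 8.91. The mean chondrocyte level with IL-1α was 9.55 to 9.63 in batch 1 and 10.36 to 10.48 in batch 2. It was also lower in batch 1 in untreated cartilage and with retinoic acid. The mean endothelial level with IL-1α was 6.885 to 6.901 in batch 1 and 6.56 to 6.682 in batch 2. With retinoic acid the mean erythroid level was 8.38 to 8.46 and 9.02 to 9.06. The part of these cells in the values of Fos, Atf3 and Egr1 was not tested.

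**Figure D3:**
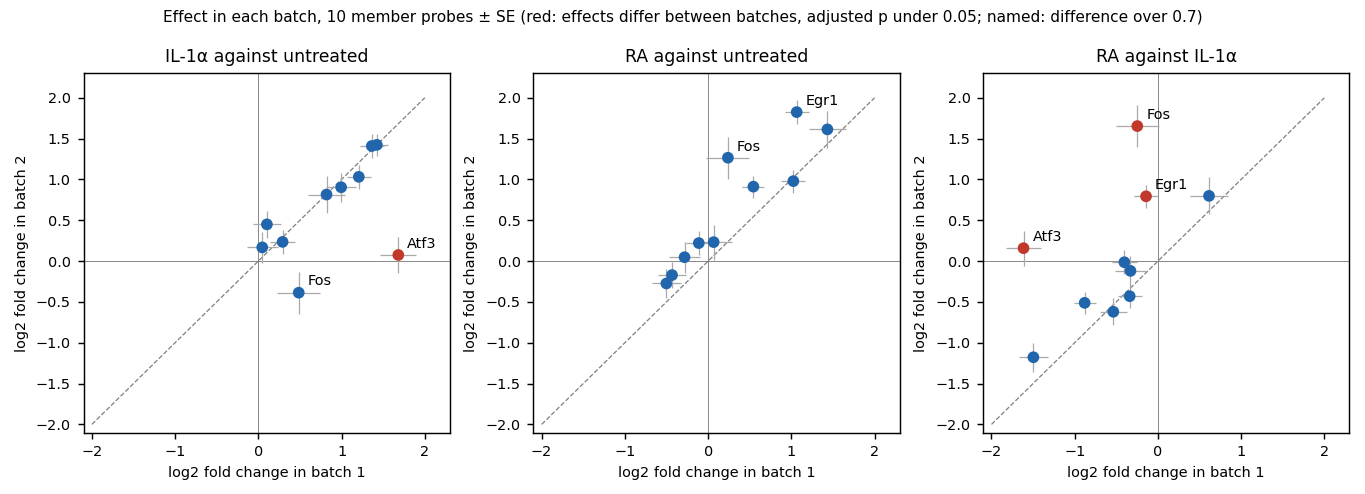
Log2 fold change in batch 1 (x axis) and batch 2 (y axis) of the 10 tested probes, with SE bars, the line of equal effects, and red for probes whose effects differed between the batches at an adjusted p from limma under 0.05 (RA, retinoic acid). Atf3 with IL-1α was 1.68 in batch 1 and 0.07 in batch 2, and Fos, Atf3 and Egr1 lie above the line between the treatments.

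Cebpd encodes C/EBPδ, an early acute-phase factor. Its brighter probe (ILMN_2707363) read 6.51 and 6.03 on the untreated arrays of batch 1 and 8.91 and 8.68 on those of batch 2. With IL-1α it read 6.37 and 6.37, then 9.18 and 9.30, and with retinoic acid 5.82 and 5.85, then 8.57 and 8.67. The batches were 2.73 apart on the log2 scale, 6.62-fold (limma adjusted p = 3.56e-12), and within each batch every retinoic acid array was below every IL-1α array. Neither treatment changed Cebpd past the threshold (0.28 with IL-1α, limma adjusted p = 0.136; −0.30 with retinoic acid, limma adjusted p = 0.0952). The rise with IL-1α was called at 0.41 without untreated replicate 1 of batch 1 (limma adjusted p = 0.0399), and the fall with retinoic acid at −0.41 without untreated replicate 2 of batch 2 (limma adjusted p = 0.0375). Retinoic acid was below IL-1α by 1.49-fold (log2 fold change −0.58 ± 0.13, SE; limma adjusted p = 0.00462), with −0.54 in batch 1 and −0.62 in batch 2. The exact permutation test, which ignores the batches, gave p = 0.514.

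The second probe for Cebpd (ILMN_2588570) was dim, between 4.84 and 5.99, and was detected on 6 of 12 arrays. None of its treatment differences was called, at 0.11, −0.12 and −0.23. Its normalized level differed by −0.83 between batch 2 and batch 1 (limma adjusted p = 8.37e-06). In batch 2 it was detected on 1 of 6 arrays and lay at about the lowest detected signals, which were lower there (4.86 to 5.07) than in batch 1 (5.29 to 5.48), so no direction can be read from this difference.

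Levels also differed between the batches for 8 of the 10 probes, against a background of 76.3% of all tested probes. Atf3 and the brighter Fosl2 probe did not pass (limma adjusted p = 0.325 and 0.149). Fos was higher in batch 2 by 1.82 (limma adjusted p = 5.91e-06) and Egr1 by 0.89 (limma adjusted p = 1.92e-05). Jun was lower in batch 2 (−1.39, limma adjusted p = 1.24e-07), as were Junb (−0.60, limma adjusted p = 2.54e-05) and Cebpb (−0.25, limma adjusted p = 0.0156). These directions hold for normalized levels only. On untreated arrays the mean raw intensities of batches 1 and 2 were 110 and 122 for Jun, 311 and 449 for Junb, and 1264 and 2122 for Cebpb. With retinoic acid these genes also had higher raw intensities in batch 2, and with IL-1α only Cebpb did. The probe for Fosb stayed between 4.49 and 5.07 and was detected only on untreated replicate 2 of batch 2, the array with the most detected probes.

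The promoters of Fos, Jun, Junb and Cebpb are shown so that the letters around the start of transcription can be set side by side for AP-1 subunits and a C/EBP factor. The sequences are RefSeq windows of build GRCm38.p6, which held 7 of the 10 members (Fos, Fosb, Fosl2, Jun, Junb, Atf3 and Cebpb). Each runs 5′ to 3′ on the strand of the gene, from 120 bases before the start to 30 bases from it on, and capitals mark the motifs found. The windows are Fos chr12:85473770-85473919 on the plus strand, Jun chr4:95052193-95052342 on the minus strand, Junb chr8:84978719-84978868 on the minus strand and Cebpb chr2:167688795-167688944 on the plus strand.
Fos: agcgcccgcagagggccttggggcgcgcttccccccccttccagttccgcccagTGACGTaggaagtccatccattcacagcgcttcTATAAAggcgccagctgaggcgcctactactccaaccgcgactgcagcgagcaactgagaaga
Jun: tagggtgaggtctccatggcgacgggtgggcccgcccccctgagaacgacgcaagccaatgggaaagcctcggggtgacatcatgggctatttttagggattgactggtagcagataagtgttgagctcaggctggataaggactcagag
Junb: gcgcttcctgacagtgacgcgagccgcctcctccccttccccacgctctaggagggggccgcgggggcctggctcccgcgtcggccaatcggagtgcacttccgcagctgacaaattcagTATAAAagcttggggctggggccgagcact
Cebpb: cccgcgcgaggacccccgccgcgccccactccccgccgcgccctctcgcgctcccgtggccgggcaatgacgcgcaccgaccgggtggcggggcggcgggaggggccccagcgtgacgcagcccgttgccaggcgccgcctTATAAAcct

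Motifs were searched on both strands of the full windows, from 250 bases before to 50 bases after each start. The core of the cyclic AMP response element, TGACGT, was found in 2 of the 7 members, in Fos at −66 to −61 from the start and in Atf3 on the minus strand, and in 7.51% of all 32851 windows. TATAAA was found in Fos, Junb and Cebpb and in 13.6% of all windows. In Fos it lay at −33 to −28, while in Junb and Cebpb it lay at or after the annotated start. A match to an NF-kappaB motif was found in Fos, Fosb and Fosl2 and in 4.51% of windows, and the matches in Fosl2 overlap each other. The AP-1 motif TGANTCA (7.81% of windows), the C/EBP motif TTGCNNAA (10.8%), the serum response CArG box (1.63%) and a retinoic acid response element with direct repeats spaced by 5 bases (0.0974%) were found in 0 of the 7. A match describes the letters only, and no match says only that they are not in this window. Only the stated patterns were searched. The Jun window shown holds TGACATCA, which differs from TGANTCA by an additional base and was not searched for.

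Other genes of the pathways were taken from lists, with each gene represented by its brightest tested probe. Over all lists 66 genes were tested. With IL-1α 28 were higher and 5 lower, with retinoic acid 19 and 12, and with retinoic acid against IL-1α 10 and 29. These are 50%, 47% and 59.1% of the genes. Over all tested probes 29.3%, 35.4% and 31.1% passed the same threshold. Of those probes 15.2%, 18.2% and 15.2% were higher and 14.1%, 17.1% and 15.8% lower. The same shares are the background for the counts of each list below. The medians of the 66 genes were 0.31, 0.05 and −0.22 on the log2 scale, beside 0.02, 0.02 and −0.03 over all tested probes.

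**Figure D4:**
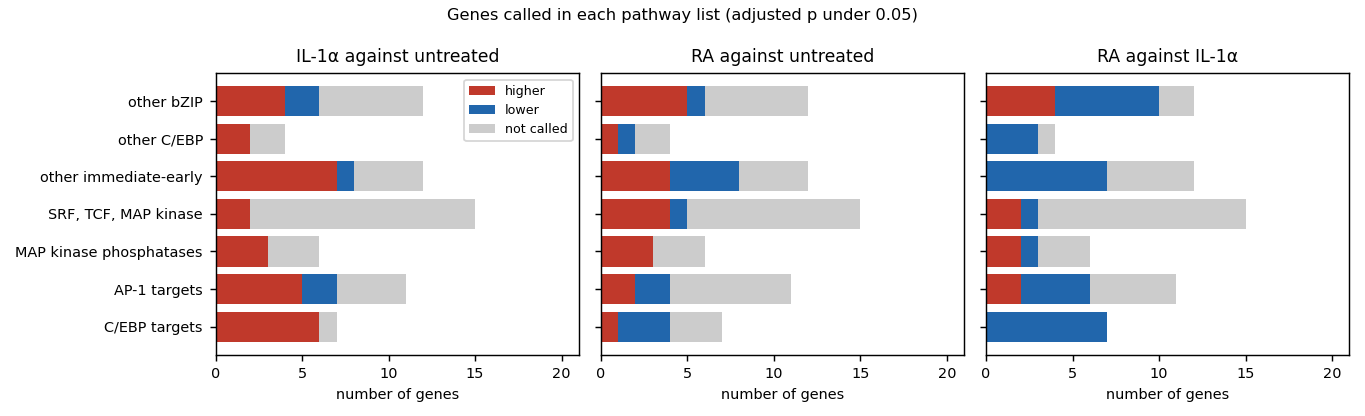
Number of tested genes of each pathway list that were higher (red), lower (blue) or not called (grey) at an adjusted p of 0.05 from limma in each comparison (RA, retinoic acid). Among the 7 tested C/EBP targets, 6 were higher with IL-1α and 7 were lower with retinoic acid than with IL-1α. Over all tested probes 29.3%, 35.4% and 31.1% were called in the 3 comparisons, in the order of the panels.

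Among the other leucine zipper partners, 12 of 17 genes on the array were tested. With IL-1α 4 were higher and 2 lower, and Batf, a partner of JUN proteins in lymphocytes, rose by 1.49. The rise of Batf was 1.91 in batch 1 and 1.08 in batch 2 (limma adjusted p of the difference 0.0436). With retinoic acid 5 were higher and 1 lower. Maf, a large MAF factor, rose by 1.21 with retinoic acid, from an untreated mean of 5.40 near the lowest detected signals. Atf5 fell by 1.88 with retinoic acid. Between the treatments 4 were higher and 6 lower, among them Atf4, the effector of the integrated stress response, at −1.10, Atf5 at −1.40 and Maf at 1.01.

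All 4 other C/EBP genes were tested. Cebpa, a factor of myeloid and fat cell differentiation, rose by 1.27 with IL-1α, where 2 were higher and 0 lower. With retinoic acid 1 was higher and 1 lower. Retinoic acid against IL-1α had 3 of 4 lower, among them Ddit3, the stress-induced C/EBP partner known as CHOP, at −1.27. Of the 7 tested genes listed as textbook targets of C/EBP factors, 6 were higher with IL-1α and 0 lower. The acute-phase genes Orm1, C3 and Hp rose by 3.72, 2.80 and 1.93. The untreated mean of Orm1, 5.03, lay at about the lowest detected signals, which limits its fold change. Csf3, which encodes a granulocyte growth factor, was at least 3.08-fold above untreated cartilage, where it was not detected. For 2 of the 7 the effect of IL-1α differed between the batches. C3 rose by 1.99 in batch 1 and 3.60 in batch 2 (limma adjusted p of the difference 0.00111). The fitted values for Csf3 were 2.97 and 1.39 (0.000578 by the same test). With retinoic acid 1 was higher and 3 lower, and Saa3 fell by 2.62. For 3 of the 7, Saa3 among them, the effect of retinoic acid differed between the batches. All 7 were lower with retinoic acid than with IL-1α, with Saa3 at −3.41, C3 at −3.34, Hp at −2.68 and Orm1 at least 11.8-fold lower. For 5 of the 7 this difference itself differed between the batches. Saa3 was −1.35 in batch 1 and −5.46 in batch 2 (limma adjusted p of the difference 1.89e-07), and C3 was −1.84 and −4.83 (2.2e-06 by the same test). Retinoic acid against untreated was −0.93 and −4.31 for Saa3. With IL-1α the means of Saa3 and Hp, 13.99 and 13.50, lay close to the highest normalized value of the arrays, 14.24. This limits what can be read from the size of their fold changes. Cebpb itself was 2.00-fold above untreated cartilage with retinoic acid. Against IL-1α, retinoic acid gave −0.39 for Cebpb and −0.58 for the brighter Cebpd probe. The part of the members in the values of the targets was not tested. Several of these targets are also made by neutrophils and macrophages. The summed neutrophil and myeloid precursor markers in batch 1 were 14400 to 17030 untreated, 17650 to 18120 with IL-1α and 6036 to 6093 with retinoic acid, and in batch 2 they were 9882 to 11730, 17220 to 18190 and 14380 to 15270. They were thus lowest with retinoic acid in batch 1 and lowest in untreated cartilage in batch 2, and their part in these values was not tested.

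Of the 11 tested textbook targets of AP-1, 5 were higher and 2 lower with IL-1α. Hmox1, which encodes heme oxygenase, rose by 2.12 and Cd44, the hyaluronan receptor, by 1.65, while Ccnd1, which encodes cyclin D1, fell by 1.12. With retinoic acid 2 were higher and 2 lower, with the gelatinase gene Mmp9 up by 1.58 and the stromelysin gene Mmp3 at −2.06. Between the treatments 2 were higher and 4 lower, with Mmp3 at −2.70, Hmox1 at −1.85 and Cd44 at −1.63. For 5 of the 11 this difference itself differed between the batches. Mmp3 was −1.96 in batch 1 and −3.44 in batch 2 (limma adjusted p of the difference 0.00103), and Hmox1 −2.30 and −1.40 (0.0189 by the same test). Retinoic acid against untreated was −1.32 and −2.80 for Mmp3. The mean of Mmp3 with IL-1α, 13.96, lay close to the top of the range of the arrays. Mmp13, which encodes a collagenase known as an AP-1 target in cartilage, was not called, but its means of 13.83 untreated, 13.88 with IL-1α and 13.99 with retinoic acid lay close to the highest normalized value of the arrays, 14.24, so no change can be read from it. Mmp13 was chosen after its values were seen.

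The other immediate-early genes numbered 12 tested of 21 on the array, with 7 higher and 1 lower with IL-1α and 4 higher and 4 lower with retinoic acid. Ier3, a survival gene induced by cytokines, rose by 1.41 and 1.32, and its levels were close to the top of the range of the arrays. Klf4, a zinc finger factor, rose by 1.67 with IL-1α and was lower with retinoic acid than with IL-1α by 1.76 (−1.76). Klf2, a related factor, fell by 2.32 with retinoic acid. Between the treatments 0 were higher and 7 lower, Klf2 among them at −1.50.

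Upstream of the members, the genes for serum response factor, its partners and the MAP kinases were counted in the same way, with 2 of 15 higher and 0 lower with IL-1α and 4 higher and 1 lower with retinoic acid. None reached a difference of 1 on the log2 scale in a called comparison. Among the 6 tested phosphatases of MAP kinases, which end the signal that induces immediate-early genes, 3 were higher and 0 lower with each treatment. Dusp4 rose by 2.67 with retinoic acid and by 1.07 with IL-1α, the latter with 1.98 in batch 1 and 0.17 in batch 2. Its untreated mean, 5.34, lay near the lowest detected signals, which limits these fold changes. Dusp5 rose by 1.78 with retinoic acid. Between the treatments Dusp4 was higher with retinoic acid by 1.59 and Dusp5 by 1.69. For Dusp4 this was 0.82 in batch 1 and 2.36 in batch 2 (limma adjusted p of the difference 0.000376).

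Likeness between probes was described by Pearson's r over the 12 arrays after the mean of each batch was subtracted. The arrays share their treatments, and probes with the same order of treatments have a high r. For Cebpb the most alike genes were Mmp10 and Sphk1 (r = 0.993 each) and Apba3, and for Junb they were Rgs16 (r = 0.985), Rhou and Pdgfa. Jun was most like Ecm1 (r = 0.988), Angptl4 and Mast2, Fosl2 most like Lrrc28 (r = 0.985), LOC100045542 and Phca, and Egr1 most like Plekhm2 (r = 0.975), LOC100048105 and Tmem14c. For Atf3, Fos and the brighter Cebpd probe the highest values were lower, with Nfic at 0.958, Gpr171 at 0.937 and Elac1 at 0.945. Behind them came Cldnd1 and Ubd for Atf3, Pik3ap1 and Fbxl10 for Fos, and Btbd4 and scl0015365.1_6 for Cebpd. Among the members, Junb and Cebpb were most alike (r = 0.951), followed by Jun and Egr1 (r = 0.883), while Fosl2 was unlike Jun (r = −0.18) and Fos (r = −0.35).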

How the data were processed

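RNA of 12 explant samples was measured on single-colour Illumina bead arrays. The intensities that the authors deposited were linear, with background left in and no normalization, and 1 table held both batches. Beside each intensity the authors deposited a detection score. Its column is headed as a p-value but rises with intensity, so its complement to 1 served as the detection p. Bead summary software is not given in the sources used here, and the submitters' processing notes name limma. Columns without a sample numbered 0.

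In R 4.3.3 with limma 3.58.1, neqc estimated background from the detection p, quantile normalized the arrays and took log2 after an offset of 16. Quantile normalization gives all arrays one distribution, so a shift of most genes in one direction is not measured. A probe was tested if its detection p was under 0.05 on 4 or more of the 12 arrays, which removed 28432 probes and left 18200 for 14317 symbols. Treatment was fitted together with a 4-level factor that combined batch and replicate number, after the study's methods, and p-values were adjusted by Benjamini-Hochberg over all kept probes. Differences between batches, and values within a batch, came from a model of treatment by batch without that factor, and levels in the batches from a model of treatment and batch. For a group without a detected array, the fold is a bound against the higher of its own signal and the lowest detected signal. The functions were tested on simulated data.

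The members and lists were chosen with earlier results of these data known. Pathway genes were named when called with a log2 fold change of at least 1, at most 4 per list and comparison, and the 3 most alike genes of each member were named. One gene that this rule names is not reported here. Alternatives were other background corrections, scalings, offsets, filters and models, each batch alone, and leaving out each array. Promoter windows came from RefSeq (GRCm38.p6). Probe sequences and probe positions were not used here, and the array's symbols can be old. The methods give 3 mice per treatment, not pooled, while the labels give 4 hips per well and duplicates, and the labels and methods also differ on serum in the culture medium. The number of arrays limits the precision.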

Additional observations from a re-analysis of the deposited data

Results flagged for a closer look

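Treatment effects that differed between the batches were picked out for 3 members, by limma with Benjamini-Hochberg adjustment over all tested probes. For Atf3, IL-1α against untreated differed by −1.61 on the log2 scale (batch 2 minus batch 1, adjusted p = 0.00924) and retinoic acid against IL-1α by 1.77 (adjusted p = 0.00251). For Fos and Egr1, retinoic acid against IL-1α differed by 1.90 (adjusted p = 0.00512) and 0.94 (adjusted p = 0.0111). Batch and line cannot be told apart. The difference for Atf3 with IL-1α was not called when IL-1α replicate 2 of either batch was left out. Of 30 sets of 4 arrays examined, one for each tested probe and treatment, 0 held an array far from the others.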

How the results depend on the processing

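The rises of Junb, Egr1, Cebpb and Jun with both treatments and of Fosl2 with IL-1α kept their direction under every alternative run. Without batch and replicate terms, 3 of 10 member probes were called with IL-1α, 2 with retinoic acid and 1 between the treatments, and 18, 13 and 21 pathway genes. Scaling to one median left 3 member probes between the treatments. Leaving out one array gave 5 to 6, 4 to 6 and 4 to 6 member probes and 29 to 36, 25 to 32 and 36 to 41 pathway genes. The numbers of replicates share no source in the labels. Deviations of equally numbered arrays correlated between −0.11 and 0.39. With 2 arrays per treatment and batch, these values cannot decide whether equally numbered arrays share a source. The block stands in the model because the study's methods have it. With no replicate block, batch kept, the counts were 6, 5 and 5, since Atf3 with IL-1α was then called (limma adjusted p = 0.0309).

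For effects that differ between batches, with IL-1α the count of 1 became 0 without a filter, with detection on all 12 arrays or with a detection p under 0.01. With retinoic acid the count of 0 became 1 without background correction, with median scaling, with normalization within batches or without a filter, and 2 with an offset of 50. Between the treatments 3 became 1 with detection on all 12 arrays. Leaving out one array gave 0 to 1, 0 to 1 and 2 to 3, and adding the replicate block left 1, 0 and 3. Probes differing in level between batches fell from 8 to 5 with detection on all 12 arrays. The causes were not tested.

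Direction turned for changes that were not called. Fos with IL-1α was −0.10 with median scaling, −0.0474 with normalization within batches, −0.0199 with an offset of 50 and −0.39 in batch 2 alone, and −0.26 to 0.38 leaving out one array. With retinoic acid, the dim Fosl2 probe was −0.11 in batch 1 alone (−0.0514 to 0.16 leaving out one array), and the dim Cebpd probe 0.00293 with median scaling and 0.0470 in batch 2 alone (−0.19 to 0.0383). Atf3 with retinoic acid was −0.0565 to 0.48 leaving out one array. Between the treatments, Fos was −0.25 and Egr1 −0.14 in batch 1 alone and Atf3 0.16 in batch 2 alone. The fits of each batch alone were chosen after seeing the data. Fos in batch 1, Atf3 outside the IL-1α arrays of batch 1, and the dim Fosl2 and Cebpd probes lie near the lowest detected signals, which limits their fold changes.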
